A study of Homo sapiens with 4 samples.

Results

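The mitochondrial ribosomal protein genes were followed in the human lung carcinoma cell line H1299. RNA-seq was done on 2 libraries from cells kept for 48 h in 0.5 mM methylparaben, a widely used preservative, and on 2 from ethanol control cells. The labels name no other treatment or genetic change, and the comparison asks which transcripts differ between treated and control cells. Members were all protein-coding genes whose symbol begins with MRPL or MRPS. They numbered 78 of 58735 genes in the deposited table, 49 of them MRPL and 29 MRPS, with 499 annotated transcripts. Whether replicate libraries derive from separate cultures is not stated, so p-values reflect the spread among these libraries alone, and that spread may be technical.

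The mitochondrial ribosome sits in the mitochondrial matrix and translates the few mRNAs of the mitochondrial genome, all of which encode subunits of the respiratory chain and ATP synthase. Its RNAs are transcribed from mitochondrial DNA, while every protein of it is encoded in the nucleus, made in the cytosol and imported. MRPL proteins belong to the large subunit, which forms peptide bonds, and MRPS proteins mostly to the small subunit, which decodes mRNA. MRPS30 and MRPS18A are exceptions by structure, since both sit in the large subunit, and MRPS36 is now assigned to the alpha-ketoglutarate dehydrogenase complex. Some members have a counterpart in the bacterial ribosome and others exist only in mitochondria.

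Library totals were 3760982 and 2068486 counts in methylparaben libraries 1 and 2, against 2368658 and 2182058 in ethanol libraries 1 and 2. A gene with 0 counts in a library may still be present at up to 0.798 and 1.45 CPM (counts scaled to the library total) in the methylparaben libraries, and at up to 1.27 and 1.37 CPM in the ethanol libraries, for counting error alone and with 3 counts as the limit. Over the genes, which are no independent replicates, the correlation of log2 CPM was 0.957 between the methylparaben libraries, 0.963 between the ethanol libraries and 0.816 to 0.853 across groups. The carcinoma markers KRT8, KRT18, VIM and AXL were read in every library. All 4 blood, both hepatocyte and all 4 lung epithelial markers listed for other cell types were at 0 counts, and COL1A1 and PDGFRB had at most 6 counts in a library.

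The read counter is not known, but the deposited counts fit a rule that keeps reads only on countable bases. These are exonic bases annotated to a single transcript. Statements below on where in a gene reads lie rest on this rule. The median member had 47.0% of its exonic bases countable, and 41 members had under 50%. Of the 499 transcripts, 223 had no countable base, and 0 of these had a read, while 133 of the others did. Reads were found for 70 members. The other 8 were at 0 counts in every library, among them MRPL12, whose product also binds the mitochondrial RNA polymerase, and MRPL18, MRPL23, MRPL36 and MRPL55. These 8 genes had 78 to 1847 countable bases. Enough reads for a test remained for 33 members, and the results below concern those 33.

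As a group, the tested mitochondrial ribosomal protein genes stayed close to the middle of all genes in methylparaben-treated cells. Member reads were 0.239% and 0.214% of the total in methylparaben libraries, against 0.245% and 0.267% in ethanol libraries. The median log2 fold change of methylparaben over ethanol was 0.02 over the 33 tested members, with 17 above 0 and 16 below, and 0.03 over all 8055 tested genes. By the quasi-likelihood test of edgeR with Benjamini-Hochberg adjustment over these genes, MRPL32, MRPL46 and MRPL52 rose and MRPS33, MRPS14, MRPL35 and MRPL50 fell at an adjusted p under 0.05. The background was 18.5% of all tested genes called higher and 18.4% called lower (36.9% in all), against 9.09% and 12.1% of the tested members. Both methylparaben libraries were above both ethanol libraries for 9 tested members (35.5% of all genes) and below them for 10 (35.0% of all genes). CPM are relative to the other RNA in a library. Less RNA of a gene per cell and more RNA of other genes therefore cannot be told apart, nor can fewer cells of a kind.

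**Figure D1:**
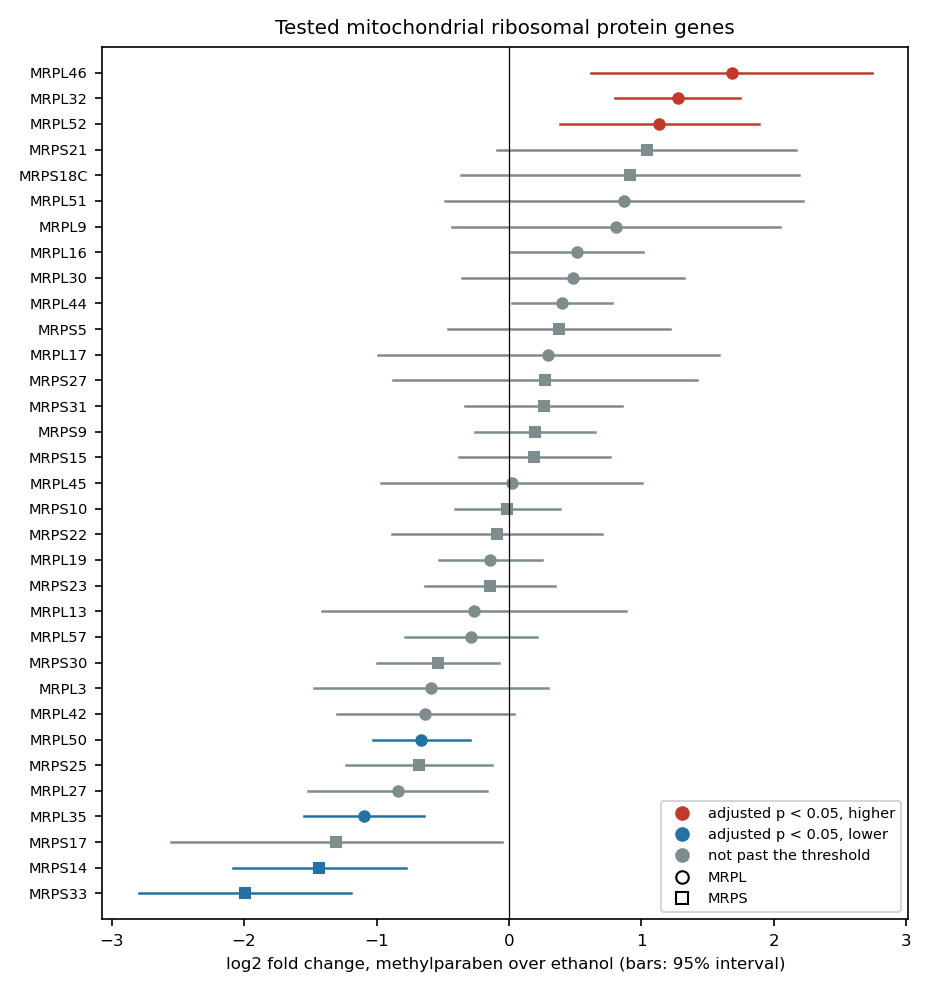
Log2 fold change of methylparaben over ethanol for the 33 tested members (x axis), with 95% intervals as bars, circles for MRPL and squares for MRPS genes, and colour for the call at an adjusted p of 0.05. The 3 genes called higher and the 4 called lower stand at the ends, apart from MRPS17, MRPL27 and MRPS25, which lie among the lower ones without passing the threshold, and the other points lie on both sides of 0.

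The pair of small-subunit genes that fell were MRPS33 and MRPS14. MRPS33 (ENSG00000090263.15; chromosome 7, 141002610 to 141015228, minus strand, GRCh38) encodes a protein found only in mitochondrial ribosomes. It had 8.43 and 6.28 CPM in methylparaben libraries 1 and 2, against 30.2 and 29.9 CPM in ethanol libraries 1 and 2. The groups were far apart and the ethanol libraries nearly equal, with a log2 fold change of -1.99 ± 0.36 (SE, n = 2 per group; edgeR adjusted p = 0.00266). MRPS14 (ENSG00000120333.4; chromosome 1, 175010789 to 175023425, minus strand), the counterpart of bacterial S14 in the head of the small subunit, had 36.5 and 24.6 CPM in methylparaben libraries, against 98.7 and 68.4 CPM in ethanol libraries. The libraries of each group differed among themselves, but the groups did not overlap (-1.43 ± 0.29, edgeR adjusted p = 0.00476). The exons of MRPS14 overlap those of CACYBP on the opposite strand, which rose by 2.19 ± 0.54 (edgeR adjusted p = 0.0114), the other way from MRPS14.

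Of the large-subunit genes, MRPL35 and MRPL50 fell. MRPL35 (ENSG00000132313.14; chromosome 2, 86199355 to 86213794, plus strand), which has a bacterial counterpart, had 60.9 and 58.1 CPM in methylparaben libraries, against 131.4 and 122.9 CPM in ethanol libraries. Replicates of each group lay close together, and the log2 fold change was -1.09 ± 0.20 (edgeR adjusted p = 0.00301). MRPL50 (ENSG00000136897.7; chromosome 9, 101387633 to 101398614, minus strand) encodes a mitochondria-specific protein. It had 179.3 and 181.1 CPM in methylparaben libraries, against 275.2 and 294.8 CPM in ethanol libraries, a smaller difference at -0.66 ± 0.16 (edgeR adjusted p = 0.0114). Its call was lost without ethanol replicate 1 (adjusted p = 0.0581) and without ethanol replicate 2 (adjusted p = 0.109). All reads of MRPS33, MRPL35 and MRPL50 and 99.6% of those of MRPS14 lay on protein-coding transcripts.

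All of the genes that rose encode large-subunit proteins. MRPL32 (ENSG00000106591.3; chromosome 7, 42932200 to 42948958, plus strand) has a bacterial counterpart, and its precursor is known to be matured by the m-AAA protease of the inner membrane before it joins the ribosome. It had 245.7 and 173.7 CPM in methylparaben libraries, against 89.3 and 84.8 CPM in ethanol libraries, with a log2 fold change of 1.27 ± 0.21 (edgeR adjusted p = 0.00181). However, 100% of these reads were assigned to MRPL32-203, which carries the annotation nonsense-mediated decay, and all 2027 countable bases of it lie within an intron of the protein-coding transcript. Its coding transcripts have 152 countable bases, and 0 reads were counted there in any library. Its exons overlap those of PSMA2 on the opposite strand, which was at 0.73 ± 0.54 (edgeR adjusted p = 0.313). The genes of the m-AAA protease were not called. AFG3L2 was at 0.23 ± 0.18 (edgeR adjusted p = 0.347).

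MRPL46 (ENSG00000259494.1; chromosome 15, 88459476 to 88467419, minus strand), mitochondria-specific, had 22.6 and 24.6 CPM in methylparaben libraries, against 3.83 and 10.8 CPM in ethanol libraries. Its ethanol libraries differed more from each other than its methylparaben libraries did, and the log2 fold change was 1.68 ± 0.47 (edgeR adjusted p = 0.0205). It was 1.10 without ethanol replicate 1 and 2.62 without ethanol replicate 2. MRPL52 (ENSG00000172590.18; chromosome 14, 22829879 to 22835037, plus strand), also mitochondria-specific, had 25.6 and 32.4 CPM in methylparaben libraries, against 12.3 and 13.9 CPM in ethanol libraries (1.14 ± 0.34, edgeR adjusted p = 0.0247). Retained-intron transcripts, which keep an intron and are not annotated as coding, held 64.6% of the MRPL46 reads and 100% of the MRPL52 reads. The coding transcripts of MRPL52 have 0 countable bases, so its share says nothing about its coding RNA. MRPL46 had an adjusted p of 0.252 with such transcripts left out, and MRPL52 could then not be tested. Without ethanol replicate 1 neither gene passed (adjusted p = 0.123 for MRPL46 and 0.122 for MRPL52), and MRPL52 did not pass without ethanol replicate 2 (0.0559) or with DESeq2 (0.0698) either.

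**Figure D2:**
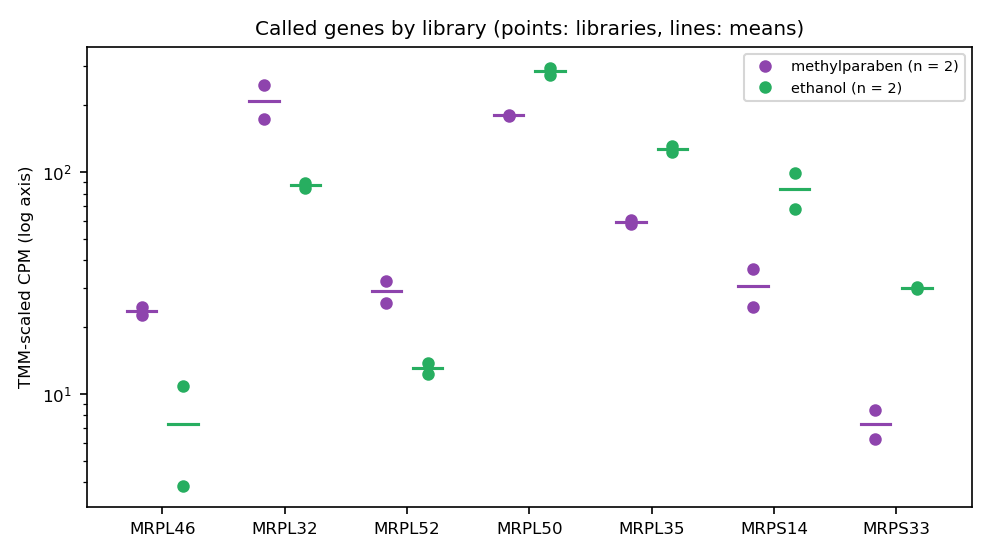
TMM-scaled CPM of the 7 called members (log axis), with methylparaben left of ethanol, a point for each of the 2 libraries of a group and a line at their mean. The groups do not overlap for any of the 7, the ethanol libraries of MRPL46 lie far apart at 3.83 and 10.8 CPM, and MRPS33 has the widest gap among those that fell.

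Several members that were not called had SEs close to the smallest of the called ones. Per kilobase of countable bases, in CPM per kilobase, MRPS10, the counterpart of bacterial S10, ranked first of all members, with 248 and 197 in methylparaben libraries and 212 and 274 in ethanol libraries. The groups overlapped, and its log2 fold change was -0.01 ± 0.18, with a 95% interval from -0.41 to 0.38 (edgeR adjusted p = 0.968). MRPL44, whose protein has a fold related to ribonuclease III, ranked second on that scale with 128 and 127 in methylparaben libraries and 99.8 and 109 in ethanol libraries. Both methylparaben libraries were above both ethanol libraries, at a log2 fold change of 0.40 ± 0.17 that missed the threshold (edgeR adjusted p = 0.0910). MRPL19 was at -0.14 ± 0.18 with a 95% interval from -0.53 to 0.25, MRPS9 at 0.19 ± 0.20 with one from -0.26 to 0.65, and MRPS23 at -0.14 ± 0.22 with one from -0.63 to 0.35. The intervals leave room for changes up to those bounds, so a missed threshold does not show that these genes were unaltered.

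Several members narrowly missed the threshold. MRPL27, which has a bacterial counterpart at the peptidyl transferase centre, had 18.5 and 17.8 CPM in methylparaben libraries, against 34.9 and 30.3 CPM in ethanol libraries (edgeR adjusted p = 0.0524). MRPS25 had 37.3 and 40.8 CPM in methylparaben libraries, against 67.6 and 57.1 CPM in ethanol libraries (edgeR adjusted p = 0.0541). MRPS30 had 91.7 and 75.9 CPM in methylparaben libraries, against 129 and 115 CPM in ethanol libraries (edgeR adjusted p = 0.0649). In each of these 3 genes both methylparaben libraries were below both ethanol libraries. In all, 13 tested members (39.4%) had an unadjusted p under 0.05, against 47.0% of all tested genes. MRPL51 had 8.16 and 36.1 CPM in methylparaben libraries, against 10.6 and 12.6 CPM in ethanol libraries, and its log2 fold change of 0.87 became -0.47 without methylparaben replicate 2.

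Split by symbol, 3 of 18 tested MRPL genes rose and 2 fell, with a median log2 fold change of 0.16, against a background of 18.5% higher and 18.4% lower over all genes. Among 15 tested MRPS genes, MRPS30 included, 0 rose and 2 fell, with a median of -0.01. By descent, 1 of 18 tested members with a bacterial counterpart rose and 2 fell (median 0.19), against 2 and 2 of 15 mitochondria-specific members (median -0.09). No difference between these subsets was tested.

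The calls separated by where in the gene the reads could lie. In the fit per transcript, 38 member transcripts were tested, of which 5 were called higher (background 20.3% of 9167 transcripts) and 7 lower (19.1%). All 5 higher ones, MRPL32-203, MRPS22-211, MRPS31-204, MRPL52-217 and MRPL46-203, had at least 90% of their countable bases inside introns of the coding transcripts of the same gene. Of 11 tested member transcripts of that kind, 5 were higher (45.5%, against 37.9% of 2013 such transcripts of all protein-coding genes) and 0 lower (against 7.25%). Their median log2 fold change was 1.26, against 0.95 for all such transcripts, and each of the 11 was above 0, against 75.1%. Enough reads in either group sufficed to pass the filter. Some of the 11 were thus tested only through their methylparaben libraries, such as MRPS22-211, with 0.866 and 0.883 CPM in ethanol libraries. The filter therefore partly set these signs, and the share above 0 cannot show a direction. Of the other 27 member transcripts 0 were higher (against 14.7% of 4636) and 7 lower (25.9%, against 25.3%), with a median of -0.17 against -0.18. The 7 were MRPS33-201, MRPS14-202, MRPL35-202, MRPL50-201 and MRPL27-202, all protein-coding, and the processed transcripts MRPS25-207 and MRPS30-201. In both the members and all protein-coding genes the median was above 0 for intronic transcripts and below 0 for the others, and no difference between members and other genes was tested.

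Among member reads, the share of intronic reads was higher with methylparaben. No value of this share is given for all genes, where the retained-intron share given below was higher too. Transcripts with countable bases in coding introns held 17.6% and 14.3% of all member reads in methylparaben libraries, against 6.27% and 7.17% in ethanol libraries. MRPL32 contributed much of this, and without it the shares were 8.45% and 7.32% in methylparaben libraries, against 2.75% and 3.94% in ethanol libraries. Such reads were found on 65 transcripts of 39 members. Retained-intron transcripts alone held 6.22% and 5.62% of member reads in methylparaben libraries, against 2.36% and 3.31% in ethanol libraries, a difference of 3.09 percentage points. Of 9 tested member transcripts of this type 3 were called higher (background 40.2% of 1504) and 0 lower (5.98%). Over all protein-coding genes these transcripts held 5.996% and 5.93% in methylparaben libraries, against 3.52% and 3.42% in ethanol libraries. With 2 libraries per group an exact permutation test of such a share cannot go below p = 0.333, so none was made.

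**Figure D3:**
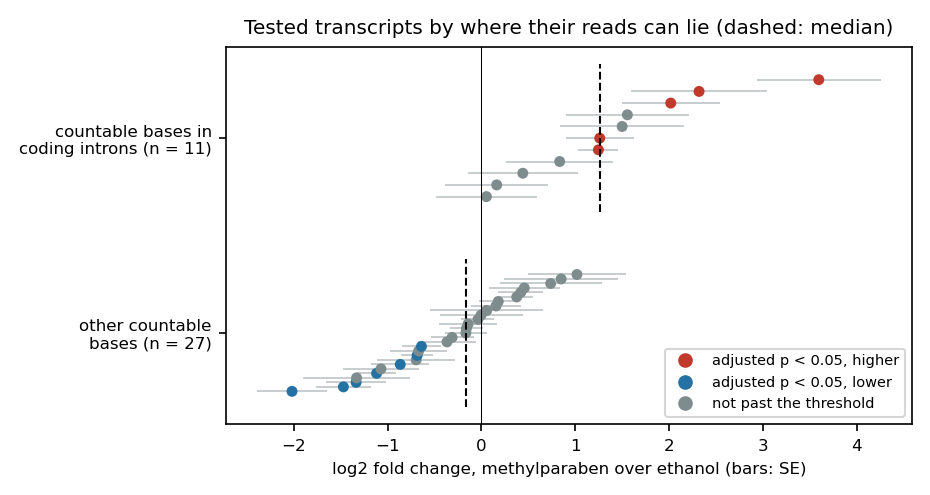
Log2 fold change of methylparaben over ethanol for the 38 tested member transcripts (x axis, bars give the SE), split by whether at least 90% of their countable bases lie in introns of coding transcripts, with dashed lines at the medians. All 11 intronic transcripts lie above 0 with a median of 1.26, while the other 27 have a median of -0.17 and hold all 7 lower calls. Some of the 11, MRPS22-211 among them, passed the filter only through their methylparaben libraries.

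The intron kept in MRPS22-211 begins at an annotated splice donor of the coding transcript. Its first 15 bases, in capitals, are shown after the last 15 exon bases, read from GRCh38 on the gene's strand, since the higher call of this transcript rests on reads past the junction.
MRPS22-211, chr3:139351046-139351075, plus strand: acagagtatatcaagGTGAGTAGATTTTAG
The retained intron is 1586 bases long and opens with GT, the first letters of the usual splice donor.

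MRPS22 and MRPS31 encode mitochondria-specific proteins of the small subunit, and their summed counts covered transcripts with unlike values. MRPS22-211, the retained-intron transcript, had 46 and 18 counts in methylparaben libraries, against 2 and 2 in ethanol libraries (12.5 and 9.51 CPM against 0.866 and 0.883 CPM). It rose by 3.596 ± 0.66 on the log2 scale (edgeR adjusted p = 0.00262). MRPS22-214, annotated for nonsense-mediated decay, had 10.3 and 9.51 CPM in methylparaben libraries, against 26.0 and 15.9 CPM in ethanol libraries (-1.07 ± 0.41, edgeR adjusted p = 0.0600). The gene as a whole was at -0.09 ± 0.36. MRPS31-204, a processed transcript, had 14.1 and 12.7 CPM in methylparaben libraries, against 2.60 and 3.97 CPM in ethanol libraries (2.02 ± 0.52, edgeR adjusted p = 0.0127). The coding MRPS31-201 had 27.4 and 27.5 CPM in methylparaben libraries, against 41.6 and 29.1 CPM in ethanol libraries and was not called (-0.37 ± 0.30). COPB2, whose exons overlap MRPS22 on the opposite strand, was at 0.53 ± 0.31 (edgeR adjusted p = 0.208). AC024933.1, an antisense gene there, had 11 and 2 counts in methylparaben libraries, against 0 and 0 in ethanol libraries. The strand setting is unknown, so the strand of origin of these reads, as of those on MRPS22, cannot be told.

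A test of each transcript relative to the rest of its gene, added after the transcript values were seen, could be made for 12 transcripts of 6 members. It called 2 of them (background 15.4% of 2830 transcripts). Both passed the filter only through their methylparaben libraries. In ethanol libraries MRPS22-211 had 0.866 and 0.883 CPM and MRPS31-204 had 2.60 and 3.97 CPM. The filter thus partly set their direction, also where a library is left out, and these calls cannot show a direction for the members. MRPS22-211 rose by 3.65 relative to its gene (edgeR adjusted p = 0.000253) and was called without any single library (adjusted p from 0.00287 to 0.0452). MRPS31-204 rose by 1.94 (edgeR adjusted p = 0.0103), but its call was lost without each of the 4 libraries (adjusted p from 0.0697 to 0.377). In MRPL46 the retained-intron transcript MRPL46-203 had 15.5 and 17.97 CPM in methylparaben libraries, against 0.433 and 6.18 CPM in ethanol libraries, and the coding MRPL46-202 had 7.05 and 6.87 CPM in methylparaben libraries, against 3.47 and 4.86 CPM in ethanol libraries. Neither stood apart from its gene, at 0.66 (adjusted p = 0.599) for the first of them and -0.92 (adjusted p = 0.443) for the other. In MRPS25 the processed transcript MRPS25-207 fell by 1.33 ± 0.32 (edgeR adjusted p = 0.00903), while the coding MRPS25-201 was at -0.14 ± 0.31. This difference within MRPS25 did not pass either (adjusted p = 0.346), and its exons overlap those of NR2C2 on the opposite strand, which rose by 0.65 ± 0.18 (edgeR adjusted p = 0.0175).

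**Figure D4:**
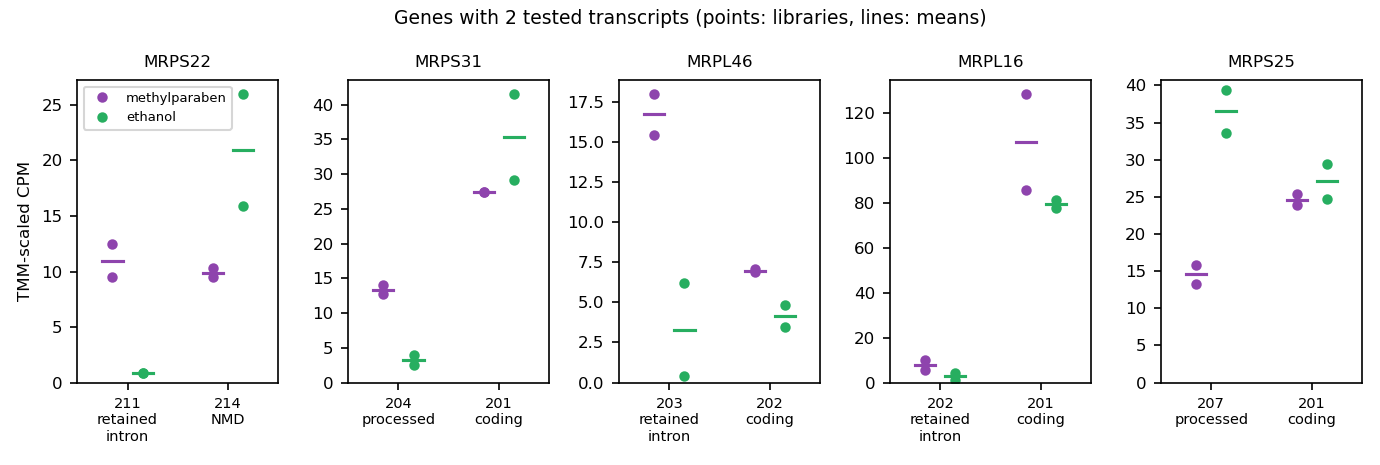
TMM-scaled CPM of both tested transcripts of 5 members, with methylparaben left of ethanol, a point for each of the 2 libraries of a group and a line at their mean, each panel on its own axis from 0. The intronic transcripts of MRPS22, MRPS31, MRPL46 and MRPL16, at the left of their panels, were higher in both methylparaben libraries. So were the coding MRPL46-202 and MRPL16-201. MRPS22-214, MRPS31-201 and MRPS25-207 were lower in both methylparaben libraries, and of these only MRPS25-207 was called. The groups overlapped for MRPS25-201.

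With counts of protein-coding transcripts alone, 24 members could be tested, and 1 rose (background 19.3% of 4487 genes) and 4 fell (22.4%). The 4 were the same genes as before, MRPS33, MRPL35, MRPS14 and MRPL50. The 1 that rose was MRPL44, at 0.53 ± 0.15 (edgeR adjusted p = 0.0160), and its call was lost without ethanol replicate 1 (adjusted p = 0.129) or ethanol replicate 2 (0.162). Left without either ethanol library, this fit called 0 of all genes, with 5 of 27 tested members at an unadjusted p under 0.05 each time, against 32% of all genes without ethanol replicate 1 and 30.5% without ethanol replicate 2.

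The coding transcripts that fell were mostly read in the 3′ untranslated region (UTR). Of MRPS33-201, 3444 of 3461 countable bases lie there, of MRPS14-202 1287 of 1297, of MRPL35-202 all 2225, of MRPL27-202 1646 of 1688 and of MRPL50-201 2836 of 3332. Among 11 tested member transcripts with at least 90% of countable bases in the 3′ UTR, 4 were lower (36.4%, against 30.4% of 2293 such transcripts of all genes) and 0 higher (against 12.1%), with a median of -0.69 against -0.34. Among the 13 with a smaller share, 1 was lower (7.69%, against 20.0% of 2189) and 0 higher (against 17.3%), with a median of 0.18 against -0.03. Some transcripts read in the 3′ UTR were not called. MRPL19-202, with all 2558 countable bases there, was at -0.16 ± 0.18, and MRPS23-201, with 5005 of 5155, at -0.17 ± 0.22. For MRPS33, MRPS14 and MRPL35, 0 countable bases lie in the coding sequence, so the counts of these genes speak almost entirely for their 3′ UTRs.

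**Figure D5:**
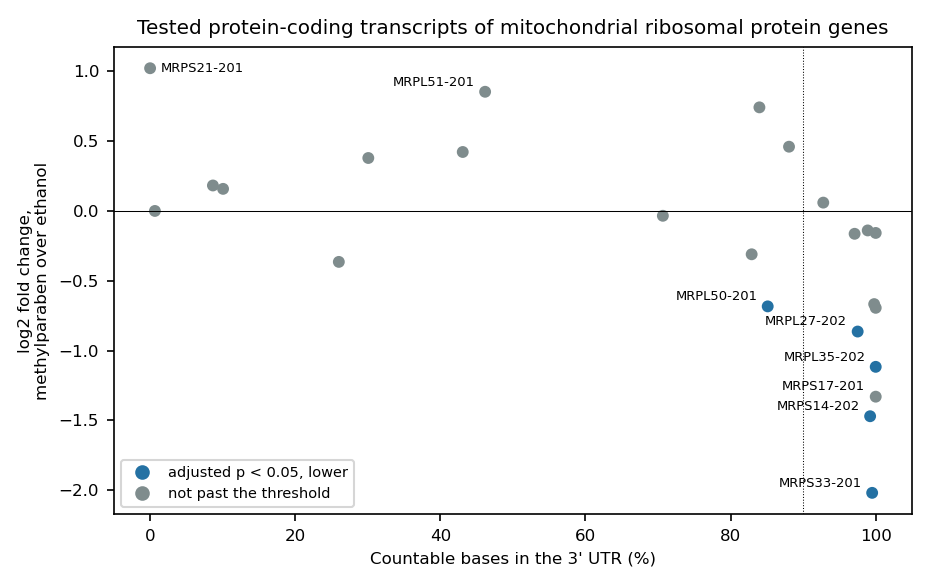
Log2 fold change of methylparaben over ethanol (y axis) against the percentage of countable bases in the 3′ UTR (x axis) for the 24 tested coding transcripts, with the dotted line at 90%. The 5 transcripts called lower lie at 85% or more, beside MRPL19-202 and MRPS23-201 near 0, and 0 transcripts were called higher.

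Most coding transcripts with a high GC content had few reads. Among 33 coding transcripts with at least 500 countable bases, the 12 with a GC content of 50% or more had a median of 5.47 reads per countable kilobase over the 4 libraries, and 10 of them had under 30 reads. MRPS15-201 had 447 reads, and MRPL16-201, with a GC content of 50.7%, fell short of the length minimum with 499 countable bases but had 316 and 243 counts in methylparaben libraries, against 188 and 176 in ethanol libraries. The 21 with a lower GC content had a median of 288 reads per countable kilobase, and 3 had under 30 reads. Across these 33 transcripts, which share their libraries, Spearman's rho between GC content and reads per countable kilobase was -0.689 and Pearson's r was -0.716. MRPL41, for example, had 2 reads on 1262 countable bases and MRPS26 had 14 on 1127. The log2 fold change followed GC content only weakly, at a rho of 0.246 over the 33 tested members and 0.128 over 8045 tested genes.

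Promoters of 70 members were matched in RefSeq (GRCh38.p14, 250 bases before to 50 after the start site) and searched on both strands for the letters of 5 factor motifs, chosen with results known. None of the 5 strings contains another. The YY1 letters AAGATGG were in 23 of 70 (32.9%), against 6.4% of 15842 protein-coding promoters, and the ETS letters CCGGAAG in 29 (41.4%, against 14.2%). The NRF1 letters TGCGCA were in 14 (20%, against 10.8%), the SP1 letters GGGGCGG in 31 (44.3%, against 41.6%), and the ATF4 letters TGATGNAA in 1 (1.43%, against 2.53%). The YY1 letters were found in all 3 matched promoters of members that rose, in 1 of 3 of those that fell, in 6 of 25 of those tested and not called and in 13 of 39 of those not tested. A match is a description of these letters and not a site, and no difference between these subsets was tested. The windows of 5 members, 3 that rose, 1 that fell and MRPS10, which was not called, are given with the letters in capitals.
MRPL32, chr7:42932143-42932172, strand opposite to the gene: ctcttcgggtaAAGATGGcggagcgcgggt
MRPL46, chr15:88467362-88467391, strand of the gene: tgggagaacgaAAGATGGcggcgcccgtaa
MRPL52, chr14:22829778-22829807, strand of the gene: tacgatgacccAAGATGGcggagccgtgat
MRPL50, chr9:101398577-101398606, strand of the gene: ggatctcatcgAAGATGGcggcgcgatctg
MRPS10, chr6:42217834-42217863, strand of the gene: tcgggaccggcAAGATGGcggcgcggacag
Along the gene, the match begins at position -221 in MRPL32 and -98 in MRPL52, and at position 9 in MRPL46, 24 in MRPL50 and 10 in MRPS10, with the start site as position 1. MRPL52 has a second match, at -64.

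The RNA partners of these proteins were higher with methylparaben. MT-RNR1, the small-subunit rRNA, had 7382 and 11139 CPM in methylparaben libraries, against 3288 and 2513 CPM in ethanol libraries (1.67 ± 0.24, edgeR adjusted p = 0.000775). MT-RNR2, the large-subunit rRNA, had 100037 and 94456 CPM in methylparaben libraries, against 44110 and 36372 CPM in ethanol libraries (1.27 ± 0.22, edgeR adjusted p = 0.00208). The mRNAs that the ribosome translates went the other way, with 12 of 13 lower (background 18.4%) and 0 higher (18.5%) at a median of -1.32. These libraries were made from RNA pulled down with poly(A) beads, so the levels are those of RNA that was captured.

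Genes that act around the mitochondrial ribosome were called in both directions, and the background for these counts is the same 18.5% higher and 18.4% lower of all tested genes. Of 14 tested of 27 listed genes for assembly and rRNA modification, 3 rose and 0 fell, with a median of 0.44. NOA1, a GTPase needed for small-subunit assembly, had 165 and 166 CPM in methylparaben libraries, against 90.2 and 87.9 CPM in ethanol libraries (0.89 ± 0.18). NSUN4, an rRNA methyltransferase, was at 0.85 ± 0.26. MTERF3 was at 3.404 ± 0.84, with 9.25 and 9.94 CPM in methylparaben libraries, against 0 and 1.73 CPM in ethanol libraries. MTERF3 passed the filter only through its methylparaben libraries, so the filter partly set its direction. Of 5 tested translation factors of 15 listed, 1 rose and 0 fell, the ribosome recycling factor MRRF (1.49 ± 0.29, edgeR adjusted p = 0.00366). Of 13 tested of 23 genes for mitochondrial transcription and RNA processing, 1 rose and 4 fell. GRSF1, an RNA-binding protein of mitochondrial RNA granules, had 7.89 and 6.28 CPM in methylparaben libraries, against 28.1 and 25.1 CPM in ethanol libraries (-1.88 ± 0.37). TRMT10C, a subunit of mitochondrial RNase P, was at -1.25 ± 0.31, and TFAM, which packages mitochondrial DNA and starts its transcription, at -0.57 ± 0.18, while FASTKD1 was at 1.36 ± 0.40.

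Other machinery of the organelle was counted by the same fit, against the same background. Of 9 tested import and presequence cleavage genes of 14 listed, 2 rose and 0 fell, namely HSPA9, the matrix HSP70 that pulls in precursors (2.44 ± 0.26), and PMPCB, a subunit of the processing peptidase (1.31 ± 0.41). Of 5 tested proteases and chaperones of 10, 1 rose, the chaperonin gene HSPD1 (1.72 ± 0.24). Of 3 tested of 5 other proteins of the mitochondrial ribosome, 0 passed, and PTCD3 was at -0.35 ± 0.18. Among cytosolic ribosomal protein genes 12 of 57 tested rose and 5 fell, with a median of 0.34, against 3 and 4 of 33 mitochondrial ones. The difference between these families was not tested.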

How the data were processed

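Poly(A)-selected RNA of 4 libraries was sequenced after a TruSeq preparation, per the labels' protocols. The authors deposited raw read counts per transcript, FPKM values, log2 values of FPKM plus 1 and a raw and an adjusted p-value per transcript from a comparison made by them, per the file headers. The build is GRCh38 and the tools listed are DESeq2, limma and edgeR, per the submitters' processing notes, while sources used here give neither the aligner nor the counter and its strand setting. Countable bases were derived from GENCODE release 29.

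Counts were summed per gene because the table holds transcripts, filtered with filterByExpr (minimum count 10, minimum total 15), scaled by TMM and tested two-sided by quasi-likelihood (edgeR 4.0.16, R 4.3.3), adjusted over all features tested, at a threshold of 0.05. The same fit was run per transcript and on protein-coding transcripts alone, and transcript usage was tested with edgeR's diffSpliceDGE. Simulated data were used to check these fits and the usage test only. The SE is the log2 fold change over the square root of F. Alternatives were other scalings and filters, DESeq2 1.42.0, limma 3.58.1 (voom, and log2 of FPKM with pseudocounts of 1 and 0.1), a replicate block, and leaving out retained-intron transcripts or each library in turn. Where a library is left out, the lone library of its group is assumed to vary like the other group.

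Named members were those past the threshold, the 5 with the highest mean CPM, the 5 uncalled ones with the smallest SE, and up to 5 at 0 or read on 1 noncoding type, in alphabetical order. Of related lists up to 4 called genes were named. MRPL27, MRPS25, MRPL51, PTCD3, the genes overlapping members, and the genes of transcript, UTR and GC results were chosen after their values were seen. Members and lists were chosen with earlier results of these data known.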

Additional observations from a re-analysis of the deposited data

How the results depend on the processing

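In the gene fit, MRPL32, MRPL35, MRPS14 and MRPS33 kept their calls in 14 of 14 alternatives, at adjusted p up to 0.0413, and 0 of the called members changed sign. Leaving out 1 library gave 1 to 5 members higher and 3 to 7 lower, with a median log2 fold change from -0.15 to 0.12. For coding transcripts the ranges were 0 to 4 higher and 0 to 5 lower, and for transcripts 2 to 7 higher and 3 to 9 lower. Scaling by library size alone gave 7 lower and a median of -0.076, beside -0.076 for all genes. Without a filter the median was 0.23 over 70 members. Without retained-intron transcripts 1 was higher (median -0.056), and limma on log2 FPKM gave 1 higher with either pseudocount, at a median of -0.0737 with 1 and -0.0740 with 0.1. RLE scaling gave 2 higher on coding transcripts.

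With the replicate number as a block, 3 members were higher and 4 lower, 1 and 4 on coding transcripts and 5 and 5 among transcripts. Deviations of same-numbered libraries correlated at -0.150, so a crossed pairing was added after seeing the data, and with that block 7 genes were lower and 2 higher on coding transcripts. The cause was not tested for any of these shifts. Over all genes, 2976 calls became 1677 without ethanol replicate 1. Among single members, 415 comparisons with an alternative kept direction and side of the threshold, 11 lost a call, 12 gained one and 17 changed sign, the last all in members not called. Leaving out 1 library, log2 fold changes of these ran from -0.17 to 0.15 for MRPS10, -0.47 to 1.63 for MRPL51, -0.078 to 0.72 for MRPS27, -0.31 to 0.032 for MRPL19, -0.10 to 0.73 for MRPS5, -0.23 to 0.63 for MRPL17, -1.15 to 0.22 for MRPL13, -0.41 to 0.32 for MRPS22, -0.43 to 0.12 for MRPS23 and -0.38 to 0.59 for MRPL45. MRPS10 was at 0.071 without retained-intron transcripts, MRPL45 at -0.076 by library size, and MRPS27, by limma on log2 FPKM, at -1.02 (pseudocount 1) and -1.13 (pseudocount 0.1). At 2 libraries per group and the floors given, small changes were not detectable.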

Other observations

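Annotated pseudogenes of the members numbered 75, from 34 parent genes, and 19 of them had reads. They held 333 and 141 counts in methylparaben libraries, against 203 and 169 in ethanol libraries, which equals 3.71% and 3.18% of the member counts in methylparaben libraries, against 3.50% and 2.90% in ethanol libraries. Of 4 tested, 1 was called, MRPS31P5, with 8.43 and 13.1 CPM in methylparaben libraries, against 4.25 and 3.03 CPM in ethanol libraries (1.52 ± 0.54, edgeR adjusted p = 0.0493). Such copies share sequence with their parents, so the split of reads between them is uncertain.

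Further members were read only off their coding transcripts. MRPL9, MRPS24, MRPS5 and MRPS6 had reads on retained-intron transcripts alone, as MRPL52 did. MRPS24 had 14 and 2 counts in methylparaben libraries, against 3 and 5 in ethanol libraries, and MRPS6 had 7 and 10 counts in methylparaben libraries, against 4 and 7 in ethanol libraries. Of all 78 members, 22 had under 10% of their reads on coding transcripts and 37 had 90% or more. These shares depend on which bases are countable, and 4 members have no countable base on a coding transcript. In the authors' deposited table, 12 member transcripts have an adjusted p under 0.05, against 2.16% of all its transcripts, and 10 of these are among the 12 transcripts called here.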
